A study of Mus musculus with 9 samples.

Results

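The genes described here encode the machinery that copies DNA and supplies its nucleotides, followed in submandibular salivary glands of mice after part of the gland was removed. They are a list of 40 gene symbols, taken by name with no threshold on a measured value. The list was chosen with earlier results of these data known, so it is described here and not tested as a set. Of the 40, 39 were measured, each by 1 of the 22206 transcript clusters tested on the array (a transcript cluster is the set of probes for the transcripts of 1 gene), and Mcm7 was not analysed here. The mice were female C57BL6/J animals aged 12 weeks. Those of the first group had mock surgery and were sampled on day 3, those of the second had part of the gland resected and were sampled on day 3, and those of the third had the same resection and were sampled on day 14. Each group had 3 arrays, which the design text calls biological replicates. All 3 groups were operated on, the control is surgery without resection, and a day 14 mock group was not analysed here, so resection and time since surgery cannot be told apart on day 14.

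A cell that prepares to divide first marks its replication origins. The origin recognition complex, with Cdc6 and Cdt1, loads the ring of MCM helicase subunits onto DNA, and geminin (Gmnn) later blocks further loading. The kinase Cdc7 with its activator Dbf4, and then Cdc45 and the GINS complex, turn the loaded rings into working helicases at the start of S phase. Primase and DNA polymerases then copy both strands, with PCNA as a sliding clamp, while ribonucleotide reductase, thymidylate synthase and thymidine kinase supply deoxynucleotides. Most cells of an adult salivary gland are not dividing, and such cells keep many of these transcripts low.

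All values are log2 levels on the scale the authors deposited. A difference is the mean log2 level of the first group minus that of the second, given with the standard error (SE) of a limma fit across all transcript clusters, and a gene is said to have risen or fallen when its adjusted p (Benjamini-Hochberg over all transcript clusters) was under 0.05. Array medians ran from 5.09 to 5.24, and within a group any pair of arrays had a Pearson correlation of 0.985 to 0.990 over all transcript clusters. The median of the 5222 negative control rows was 4.41 to 4.52 on mock arrays, 4.65 to 4.77 on day 3 resected arrays and 4.51 to 4.61 on day 14 resected arrays. Markers of serous acinar cells, the main secretory cells of this gland, had mean log2 levels of 17.47 to 18.20 over all 9 arrays. Some of these markers stood at the top of the scale on every array, as given further on. Levels of different genes are not compared, since each rests on its own probes.

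On day 3 after resection the replication genes were higher as a group. Of the 39 measured, 33 rose and 0 fell against mock, where 4.92% of all transcript clusters rose and 1.36% fell. At an unadjusted p under 0.05 by limma, 35 were higher and 0 lower, beside 2221 higher and 1914 lower of all 22206 transcript clusters. The median difference was 1.99 log2, beside -0.06 over all transcript clusters, and the range was 0.17 to 4.16. All 3 resected arrays lay above all 3 mock arrays for 34 of the 39 genes, against 11.2% of all transcript clusters. The genes that did not pass were Orc1, Gins4, Pola1, Pold1, Lig1 and Dut.

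**Figure D1:**
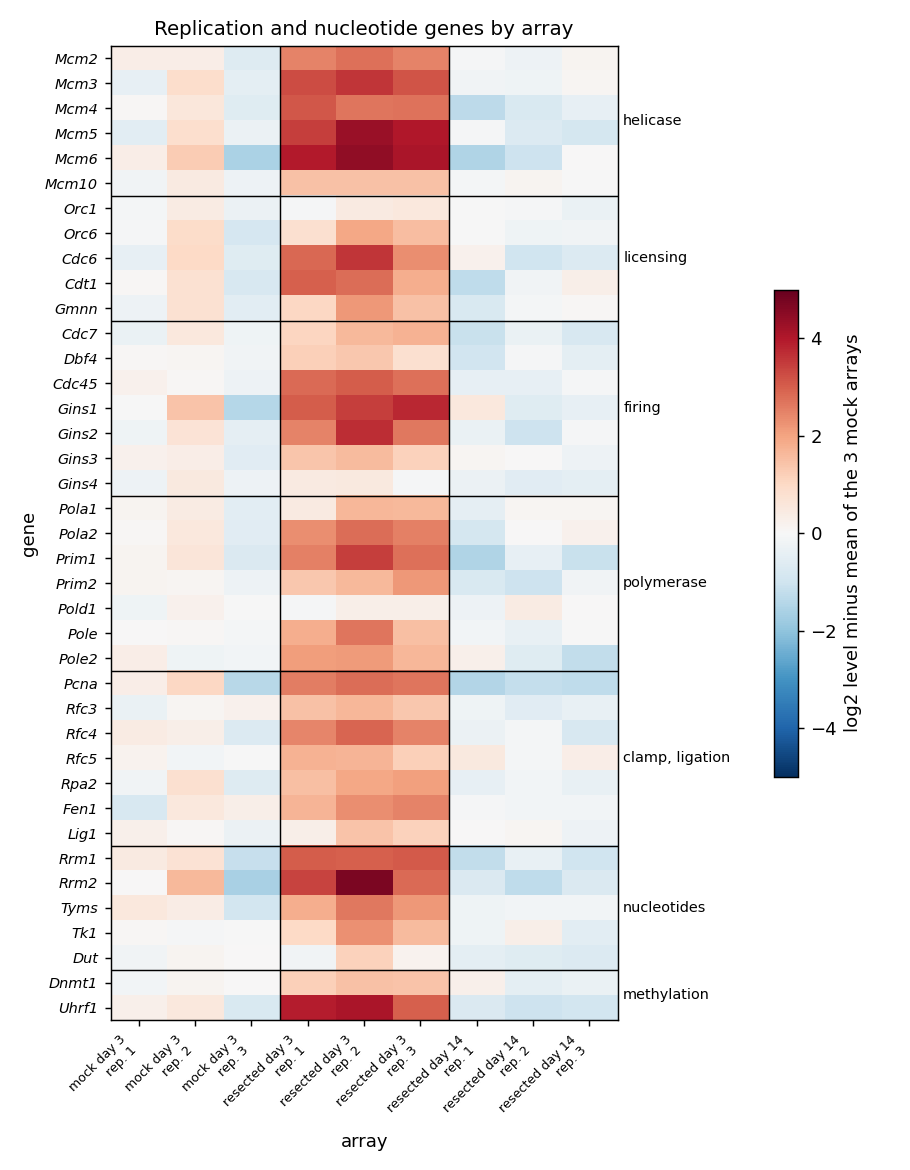
Log2 level of each of the 39 genes (rows, grouped by role) on each of the 9 arrays (columns), minus the mean of the 3 mock arrays, in colour from blue (lower) to red (higher). The day 3 resected columns are red for most genes, while the mock columns differ among themselves and the day 14 columns are pale or blue.

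All 6 measured helicase genes rose on day 3, with a median difference of 3.07. Mcm6, a subunit of the ring that unwinds DNA, stood at 8.88, 9.82 and 6.98 on mock replicates 1 to 3 and at 12.52, 13.00 and 12.63 on the day 3 resected arrays. It rose by 4.16 ± 0.57 (adjusted p = 6.74e-04), with mock arrays that spread from 6.98 to 9.82. Mcm5, another subunit of the ring, was at 3.89, 5.25 and 4.14 in mock glands and 7.87, 8.73 and 8.45 in day 3 resected glands, a rise of 3.92 ± 0.36 (adjusted p = 3.52e-05) from mock levels not distinguished from background. The groups lay apart for both genes. Mcm2 had mock levels of 7.40, 7.42 and 6.42 and resected levels of 9.57, 9.82 and 9.58, a rise of 2.58 ± 0.27. Mcm10, which is not part of the ring and helps to start the fork, rose least of the 6, by 1.47 ± 0.22, from 6.70, 7.30 and 6.59 to 8.34, 8.32 and 8.34. The SD of its resected arrays was 0.01. The ring subunits Mcm3 and Mcm4 rose by 3.32 ± 0.32 and 2.82 ± 0.31.

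Promoters of members were examined because the genes rose together and because genes of DNA replication are textbook targets of E2F factors. RefSeq promoter windows of build GRCm38.p6, from 250 bases before to 50 after an annotated start, matched 32 of the 39 genes by symbol. The letters TTTCCCGC, TTTGGCGC, TTTCGCGC or TTTGCCGC, searched on both strands, were present in 14 of the 32 genes (43.8%), against 3.38% of 15691 genes on the array and 2.6% of all 27025 genes in the table. Among other replication genes, listed further on, it was 11 of 64 (17.2%). A gene was counted if any of its windows held a match, and 5 members had several windows; with 1 window the share was 40.7% of 27 members and 3.02% of 13127 genes on the array. These motifs can overlap each other when they face in opposite directions. The stretches below, each the 160 bases before the start read along the gene's strand, show 2 genes with large rises and an overlapping pair of matches (Mcm5 and Mcm6), 2 genes with 1 match, of which Cdc6 rose and Orc1 did not pass, and Rrm2, which rose with no match in its window. Capitals mark E2F-type letters and CCAAT, the letters bound by NF-Y, on either strand.
Mcm5, chr8:75109349-75109508, plus strand: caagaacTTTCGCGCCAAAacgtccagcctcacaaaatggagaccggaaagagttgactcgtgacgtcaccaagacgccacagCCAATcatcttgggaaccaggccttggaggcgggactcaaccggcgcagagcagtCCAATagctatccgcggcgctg
Mcm6, chr1:128359706-128359865, minus strand: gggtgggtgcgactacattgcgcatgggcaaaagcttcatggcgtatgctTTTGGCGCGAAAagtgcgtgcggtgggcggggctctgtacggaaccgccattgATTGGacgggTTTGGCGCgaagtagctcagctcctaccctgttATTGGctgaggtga
Cdc6, chr11:98907991-98908150, plus strand: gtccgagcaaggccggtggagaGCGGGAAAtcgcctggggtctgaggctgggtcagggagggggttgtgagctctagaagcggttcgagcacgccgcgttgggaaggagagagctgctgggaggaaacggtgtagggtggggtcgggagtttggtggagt
Orc1, chr4:108579294-108579453, plus strand: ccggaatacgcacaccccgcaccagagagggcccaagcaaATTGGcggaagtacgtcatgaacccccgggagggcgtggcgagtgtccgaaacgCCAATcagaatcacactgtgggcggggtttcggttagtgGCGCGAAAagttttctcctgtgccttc
Rrm2, chr12:24708094-24708253, plus strand: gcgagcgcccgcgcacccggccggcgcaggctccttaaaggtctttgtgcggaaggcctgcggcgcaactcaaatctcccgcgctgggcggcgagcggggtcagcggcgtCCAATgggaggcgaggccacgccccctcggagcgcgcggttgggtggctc

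Members with and without the E2F-type letters both rose. Of the 14 genes with a match, 10 rose, with a median difference of 1.73 log2 (0.17 to 4.16). Of the 18 without, 17 rose, with a median of 2.19 (0.39 to 3.64). These medians and shares cannot be ranked, since low signal was uneven between the sets. Mcm5, Orc1, Cdc6, Gins3, Pola1, Pold1, Rfc3 and Lig1, all with a match, had mock levels not distinguished from background. Among genes without a match this held for Cdc45 and Tk1. The genes with a match that did not pass were Orc1, Pola1, Pold1 and Lig1. CCAAT was present in 18 of the 32 members (56.2%), against 42.2% of genes on the array, and GGGCGG, the letters of an Sp1 site, in 24 (75%), against 51.2%. TATAAA was present in 2 (6.25%), against 14.6%. The CHR element, for which TTTGAA and TTCGAA were searched and which is known from promoters of mitotic genes, was present in 8 members (25%), against 19.6% of genes on the array. A list of mitotic genes, described further on, had the CHR letters in 19 of 24 genes with a window (79.2%) and the E2F-type letters in 1 (4.17%). These are counts of letters in a window and do not show that a factor was bound.

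Among the licensing genes, 4 of 5 rose. Cdc6, which loads the helicase, went from 3.97, 5.39 and 3.79 on mock arrays to 7.26, 7.94 and 6.72 on day 3 resected arrays (2.93 ± 0.44, adjusted p = 0.00140). Its partner Cdt1 went from 5.17, 5.87 and 4.30 to 8.10, 7.90 and 6.93 (2.53 ± 0.46). Of the subunits of the origin recognition complex, Orc6 passed and Orc1 did not. Orc6 had mock levels of 7.20, 8.16 and 6.42 and resected levels of 8.06, 9.19 and 8.79, so the groups overlapped, and its rise of 1.42 ± 0.39 was close to the threshold (adjusted p = 0.0490). That call ended when mock replicate 1 (adjusted p = 0.123) or 3 (0.155) was left out, when replicate 2 (0.182) or 3 (0.157) of the day 3 resected group was, with only the groups compared (0.116) and after quantile normalisation (0.0712). Orc1, the largest subunit of the complex, differed by 0.30 ± 0.25 (adjusted p = 0.586), with 4.15, 4.65 and 3.97 in mock glands and 4.18, 4.69 and 4.80 in resected glands. Gmnn, the inhibitor of licensing, rose by 1.56 ± 0.37 (adjusted p = 0.0220). Its adjusted p was 0.0827 and 0.0877 when mock replicate 1 or 3 was left out, 0.0981 and 0.0652 when replicate 2 or 3 of the day 3 resected group was, and with only the groups compared 0.0503.

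Among the genes that turn loaded helicases into active forks, 6 of 7 rose. Cdc45 rose by 2.87 ± 0.21 with the lowest adjusted p of all 39 genes (1.10e-05). Of the GINS complex, whose 4 subunits work as a unit, 3 subunits rose. Gins1 went from 5.08, 6.54 and 3.67 to 8.11, 8.56 and 8.88 (3.42 ± 0.55) and Gins2 from 4.47, 5.34 and 4.21 to 7.16, 8.36 and 7.31 (2.94 ± 0.38). Gins3 rose by 1.37 ± 0.26. Gins4 differed by 0.29 ± 0.25 (adjusted p = 0.606), with mock levels of 8.56, 9.29 and 8.56 beside resected levels of 9.24, 9.31 and 8.74. Whether the subunits' differences differ from each other was not tested. The kinase Cdc7 rose by 1.48 ± 0.29 and its activator Dbf4 by 1.11 ± 0.25 (adjusted p = 0.0194), the latter from 6.58, 6.62 and 6.35 to 7.69, 7.86 and 7.33. The call of Dbf4 ended without mock replicate 3 (adjusted p = 0.0684), without day 3 resected replicate 1 (0.0572) or 2 (0.0853) and after quantile normalisation (0.0533).

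Of the polymerase and primase genes, 5 of 7 rose. The catalytic primase subunit Prim1, which lays the RNA primers, went from 9.80, 10.25 and 8.92 to 12.17, 13.10 and 12.40 (2.90 ± 0.37, adjusted p = 4.15e-04). The accessory subunit of polymerase alpha, Pola2, went from 6.54, 7.02 and 5.91 to 8.82, 9.28 and 9.0 (2.54 ± 0.33). Prim2 rose by 1.71 ± 0.28, and the catalytic and second subunits of the leading-strand polymerase, Pole and Pole2, by 1.99 ± 0.27 and 1.95 ± 0.33. Pola1, the catalytic subunit of polymerase alpha, just missed the threshold, at 1.24 ± 0.34 (adjusted p = 0.0503), with 4.69, 4.98 and 4.04 in mock glands and 5.03, 6.23 and 6.18 in resected glands. It passed when mock replicate 2 was left out (adjusted p = 0.0498), when replicate 1 of the day 3 resected group was left out (0.00711), with the replicate number of the labels as a block (0.0395) and under 4 other settings (0.0336 to 0.0459). Pold1, the catalytic subunit of the lagging-strand polymerase delta, differed by 0.17 ± 0.23 (adjusted p = 0.769). Its levels of 4.99, 5.42 and 5.19 on mock arrays and 5.14, 5.49 and 5.49 on resected arrays were below the upper quartile of the negative control rows on every array of both groups.

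Pcna, the sliding clamp, stood at 15.09, 15.79 and 13.34 in mock glands and at 17.28, 17.55 and 17.42 after resection, a rise of 2.68 ± 0.45 (adjusted p = 0.00303). The clamp loader subunit Rfc4 rose by 2.61 ± 0.30, from 9.15, 9.02 and 8.04 to 11.18, 11.64 and 11.23. The loader subunits Rfc3 and Rfc5 rose too, Rfc3 by 1.50 ± 0.22 from 4.29, 4.74 and 4.84 to 6.09, 6.30 and 5.97, and Rfc5 by 1.55 ± 0.23. Fen1, the nuclease that trims Okazaki fragments, rose by 2.17 ± 0.32, and Rpa2, which coats unwound DNA, by 1.83 ± 0.32. Lig1, the ligase that seals those fragments, did not pass (0.97 ± 0.29, adjusted p = 0.0680), although its mock levels of 5.60, 5.41 and 5.08 all lay below its resected levels of 5.67, 6.80 and 6.53. Without day 3 resected replicate 1, the lowest of these, its difference was 1.30 (adjusted p = 0.00900).

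Of the genes of nucleotide supply, 4 of 5 rose. The regulated small subunit of ribonucleotide reductase, Rrm2, went from 7.30, 8.88 and 5.65 to 10.67, 11.98 and 10.10 (3.64 ± 0.65, adjusted p = 0.00390), and its large subunit Rrm1 from 9.67, 9.95 and 8.08 to 12.26, 12.23 and 12.29 (3.03 ± 0.40). The mock arrays of Rrm2 spread widely, while the resected arrays of Rrm1 had an SD of 0.03. Tyms, which makes thymidylate, rose by 2.20 ± 0.34, and the salvage enzyme Tk1 by 1.63 ± 0.31, from 4.44, 4.35 and 4.38 to 5.40, 6.68 and 5.98. Dut, which removes dUTP so that uracil is not built into DNA, differed by 0.39 ± 0.29 (adjusted p = 0.544). Its resected levels of 6.21, 7.54 and 6.58 overlapped the mock levels of 6.23, 6.52 and 6.41. The difference was 0.01 when replicate 2 of the day 3 resected group was left out and 0.67 when replicate 1 was.

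Both genes of maintenance methylation, which copies DNA methylation onto the new strand, rose. Uhrf1, which recognises hemimethylated DNA, went from 6.93, 7.19 and 5.90 to 10.60, 10.77 and 9.68 (3.68 ± 0.35, adjusted p = 4.58e-05). The methyltransferase Dnmt1 went from 6.39, 6.68 and 6.56 to 7.72, 8.0 and 7.97 (1.35 ± 0.23, adjusted p = 0.00334).

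**Figure D2:**
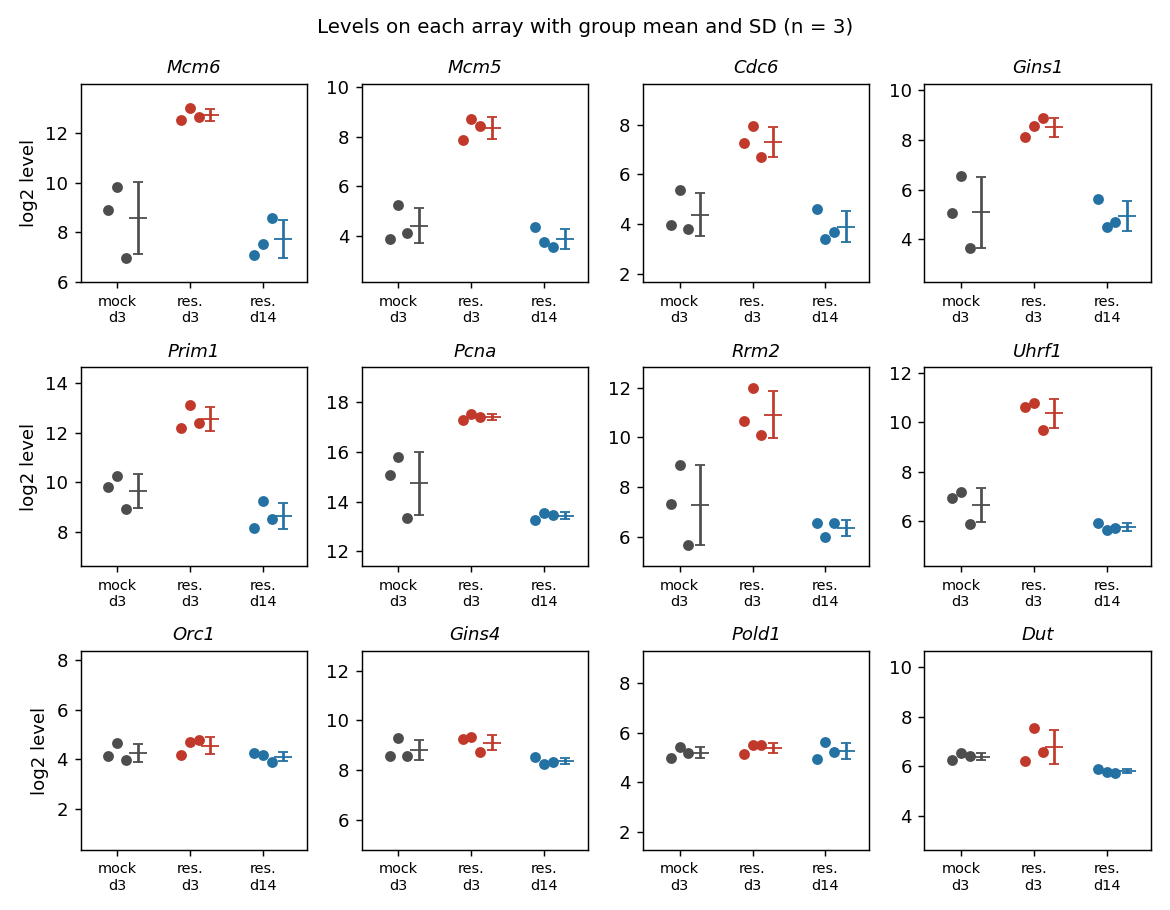
Log2 level (vertical axes, each spanning 8 log2 units) of 12 of the genes on each array, by group, with the group mean and SD (n = 3) beside the points; within a group the points run from replicate 1 to 3. The first 8 genes are higher on all day 3 resected arrays, while Orc1, Gins4, Pold1 and Dut overlap between mock and day 3 resected glands.

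Some of these levels lay near background. The upper quartile of the negative control rows was 5.65 to 5.82 on mock arrays and 5.96 to 6.09 on day 3 resected arrays. It lay above the array medians (5.09 to 5.24), so most transcript clusters lay below it too. For 12 of the 39 genes (Mcm5, Orc1, Cdc6, Cdc45, Gins2, Gins3, Pola1, Pold1, Pole, Rfc3, Lig1 and Tk1) all 3 mock arrays lay below the upper quartile of the negative control rows, and for 3 (Orc1, Gins3 and Pold1) the same held on day 3 resected arrays. Such mock levels were not distinguished from background, so the differences of these genes may be understated and have no order among the others. The median of the negative control rows was also higher on day 3 resected arrays (4.65 to 4.77) than on mock arrays (4.41 to 4.52). Small differences near background in both groups, as of Orc1 and Pold1, may therefore also be overstated. At the other end, no member reached the highest value of the table (19.93), and the highest member value was 17.55, of Pcna.

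Markers of some other cells moved with the same comparison, in which 4.92% of all transcript clusters rose and 1.36% fell. Of 9 measured macrophage and monocyte markers, 8 rose on day 3, and their mean log2 level was 7.38 to 8.22 on mock arrays, 10.67 to 11.22 on day 3 resected arrays and 8.25 to 8.47 on day 14 resected arrays. Fibroblast markers rose in 5 of 7 cases, with mean levels of 10.21 to 10.76, 12.44 to 13.75 and 10.81 to 11.31 in the same order. Of the neutrophil markers, 3 of 7 rose (4.53 to 4.67, 5.49 to 6.22 and 4.36 to 4.63), and of the T and NK cell markers 2 of 8 (4.54 to 4.67, 5.06 to 5.22 and 4.77 to 4.85). All T and NK cell means lay below the upper quartile of the negative control rows, as did the neutrophil means on mock and day 14 arrays. These means were not distinguished from background. Serous acinar markers had 2 of 8 that fell, ductal markers 2 of 9 that fell and 1 that rose, and myoepithelial markers 1 of 6 that fell (Myh11). Of the B and plasma cell markers 1 of 7 fell (Jchain, by 6.88 ± 1.60). Endothelial markers had 0 of 7 that changed by limma (5.56 to 5.80 in mock glands, 6.03 to 6.15 on day 3), with 2 higher at an unadjusted p under 0.05. The endothelial means lay close to the upper quartile of the negative control rows (5.65 to 5.82 on mock arrays, 5.96 to 6.09 on day 3 resected arrays), so their level and change are uncertain. Mucous markers, which are strong in the neighbouring sublingual gland, varied within and between groups (9.09 to 10.00, 8.89 to 13.50 and 11.98 to 14.21). Every day 14 mean lay above every mock mean. The differences of the 3 markers from mock ran from -1.93 to 7.98 on day 3 and from -0.46 to 10.19 on day 14, and 0 passed by limma. The serous marker Smgc and the mucous marker Muc19 share 1 transcript cluster, so both lists hold its value. The serous markers Prol1, Pip and Car6 stood at 19.92 or 19.93, the top of the scale, on every array. There a rise could not be measured and a fall could be hidden, and these markers are among the 8 serous markers counted. The part of these cells in the rise of the replication genes was not tested, and in whole glands more cells of a type and more RNA per cell cannot be told apart.

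The mock arrays were not alike in these genes. Mock replicate 2 was the highest of its group for 30 of the 39 genes and mock replicate 3 the lowest for 29. The median deviation from the mock mean was 0.05, 0.48 and -0.47 log2 in mock replicates 1, 2 and 3, while over all transcript clusters it was within 0.01 of 0 on each. The SD within the mock group had a median of 0.57 over the members and 0.29 over all transcript clusters. In day 3 resected glands these were 0.33 and 0.25, and in day 14 resected glands 0.32 and 0.26. An SD of at least 1 occurred in mock glands for 5 members, beside 0.806% of all transcript clusters, and in resected glands for 0 members on either day. Rrm2 had the widest mock SD (1.61), followed by Mcm6 (1.45), Gins1 (1.43), Pcna (1.26) and Rrm1 (1.01).

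On day 14 no replication gene differed from mock past the threshold. By limma 0 of 39 were higher and 0 lower, where 0.0991% of all transcript clusters were higher and 0.054% lower. At an unadjusted p under 0.05, 6 genes were lower (15.4%, against 4.58% of all transcript clusters) and 0 higher. These 6 were Pcna, Prim1, Mcm4, Uhrf1, Cdc7 and Prim2, and the lowest adjusted p was 0.471, of Pcna. The difference was below 0 for 36 of the 39 genes, with a median of -0.30 (range -1.31 to 0.24), beside -0.00 over all transcript clusters. That median was -0.11 without mock replicate 2 and -0.58 without mock replicate 3. The 3 genes above 0 were Rfc5 (0.24 ± 0.23), Pold1 (0.06 ± 0.23) and Mcm10 (0.01 ± 0.22).

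The day 14 result of Pcna depended on mock replicate 3. Its day 14 levels were 13.27, 13.55 and 13.46, beside 15.09, 15.79 and 13.34 in mock replicates 1 to 3, a difference of -1.31 ± 0.45. Day 14 arrays lay close together, and mock replicate 3 lay among them. The difference was -0.79 when mock replicate 2 was left out. Without mock replicate 3 it was -2.01 with an adjusted p of 0.00682, and Pcna was then the sole member past the threshold. Prim1, at 8.16, 9.23 and 8.54 on day 14, differed by -1.02 ± 0.37 (adjusted p = 0.509), Uhrf1, at 5.94, 5.64 and 5.74, by -0.90 ± 0.35 (0.543), and Rrm2, at 6.55, 5.99 and 6.55, by -0.91 ± 0.65 (0.758). The difference of Rrm2 was -0.11 when mock replicate 2 was left out and -1.72 when mock replicate 3 was. Day 14 levels of Mcm6 were 7.07, 7.51 and 8.56, within the mock range of 6.98 to 9.82. All 3 day 14 arrays lay below all mock arrays for Cdc7, Gins4 and Dut, which is 3 of 39 genes (7.69%) beside 6.99% of all transcript clusters, a share near the background.

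**Figure D3:**
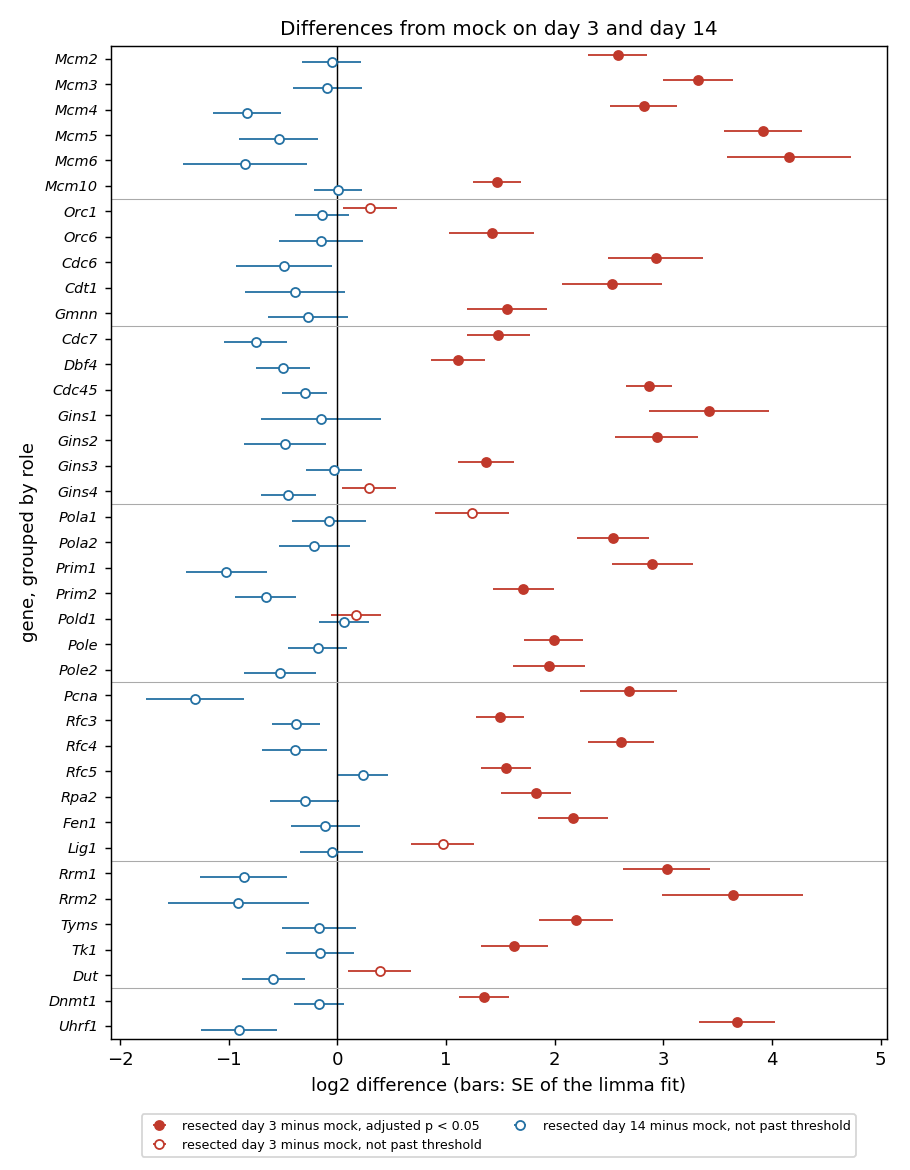
Log2 difference from mock (horizontal axis, bars are the SE of the limma fit) of each of the 39 genes on day 3 (red) and day 14 (blue) after resection; filled points passed an adjusted p of 0.05. The 33 filled points are all on day 3, and both comparisons share the same 3 mock arrays.

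Between day 3 and day 14 after resection the replication genes fell. The mock arrays cancel here, so the same fit tests each change of a difference from mock between the days. Of the 39 genes, 34 were lower on day 14 and 0 higher, where 4.88% of all transcript clusters were lower and 1.4% higher. At an unadjusted p under 0.05 by limma, 37 were lower and 0 higher, beside 2264 lower and 1927 higher of all 22206 transcript clusters. The median difference was -2.37, beside 0.06 over all transcript clusters, and all day 14 arrays lay below all day 3 resected arrays for 37 genes, against 12.5% of all transcript clusters.

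Large falls were those of Mcm6, at -5.0 ± 0.57 (adjusted p = 1.29e-04), Uhrf1, at -4.58 ± 0.35 (1.05e-05), Rrm2, at -4.55 ± 0.65 (7.16e-04), and Mcm5, at -4.46 ± 0.36 (1.51e-05). Pcna fell by 3.99 ± 0.45, Prim1 by 3.91 ± 0.37, Rrm1 by 3.89 ± 0.40, Gins1 by 3.57 ± 0.55 and Cdc6 by 3.42 ± 0.44. Day 14 levels were 4.35, 3.75 and 3.56 for Mcm5, 4.59, 3.38 and 3.70 for Cdc6 and 5.64, 4.51 and 4.68 for Gins1, and were not distinguished from background. In all, 16 of the 39 genes lay below the upper quartile of the negative control rows on all day 14 arrays. Their falls may be understated and have no order among the others. Small falls near background on both days, as of Orc1 and Pold1, may also be overstated. The median of the negative control rows was lower on day 14 (4.51 to 4.61) than on day 3 resected arrays (4.65 to 4.77).

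The genes that did not pass between the days were Orc1 (-0.44 ± 0.25), Gins4 (-0.75 ± 0.25, adjusted p = 0.115), Pold1 (-0.11 ± 0.23), Lig1 (-1.02 ± 0.29, adjusted p = 0.0546) and Dut (-0.97 ± 0.29, adjusted p = 0.0738). All 5 also missed the threshold on day 3 against mock, a comparison that shares the day 3 resected arrays. The calls of Lig1 and Dut depended on day 3 resected replicate 1, the lowest of its group for both. Without it Lig1 fell by 1.35 (adjusted p = 0.00661) and Dut by 1.26 (0.0216). With array weights Lig1 (0.0257) and Dut (0.0406) also passed, and Lig1 passed with robust variances (0.0466) and without the dimmest 30% of transcript clusters (0.0461). Orc6 fell by 1.56 ± 0.39 (adjusted p = 0.0299) and Pola1 by 1.33 ± 0.34 (0.0365). The call of each ended without day 3 resected replicate 2 (Orc6 0.129, Pola1 0.149) or 3 (0.112, 0.161) and without day 14 resected replicate 1 (0.0769, 0.143), 2 (0.0948, 0.0729) or 3 (0.0921, 0.0762).

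Other genes of the pathway were set out in a second list of 76 genes, of which 72 were measured. On day 3, 18 rose and 0 fell against mock (at an unadjusted p under 0.05 by limma, 32 higher and 1 lower), with a median of 0.56. Of all transcript clusters, 4.92% rose and 1.36% fell, with a median of -0.06. Histone and chromatin assembly at the fork was represented by Asf1b (3.02 ± 0.37), Hells (2.82 ± 0.35), Chaf1b (2.74 ± 0.31) and Chaf1a (1.49 ± 0.21), the 4 that rose of 9 measured. The fork protection protein Timeless rose by 2.69 ± 0.30 and its partner Tipin by 1.73 ± 0.31. Of 12 genes of origin firing 4 rose, among them Wdhd1, which links helicase and polymerase alpha (2.31 ± 0.35). Of 28 further genes of nucleotide metabolism 2 rose, a share near that of all transcript clusters. The 2 were Dck, the deoxycytidine salvage kinase (2.11 ± 0.23), and Samhd1, which breaks down deoxynucleotides (1.42 ± 0.21), and the 28 had a median of 0.18.

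On day 14, 0 of the 72 passed against mock by limma in either direction. At an unadjusted p under 0.05 by limma, 11 were lower (15.3%, against 4.58% of all transcript clusters). At that limit 1 was higher, beside 800 of all 22206 transcript clusters. Mcm8, a relative of the helicase subunits known from DNA repair, came closest, at -1.38 ± 0.25 (adjusted p = 0.0567). Its levels were 7.27, 7.47 and 7.23 in mock glands, 7.76, 8.34 and 8.20 in day 3 resected glands and 5.48, 6.25 and 6.08 in day 14 resected glands. The mock SD of this gene was 0.13, and its day 14 arrays lay below all other arrays. Between day 3 and day 14 after resection, 26 of the 72 fell and 1 rose, beside 4.88% lower and 1.4% higher of all transcript clusters. The single rise was thus near the background share. Top2a, the topoisomerase that untangles copied DNA, fell by 4.33 ± 0.38, Asf1b by 4.00 ± 0.37 and Chaf1b by 3.97 ± 0.31. The gene that rose was Impdh1, an enzyme of guanine nucleotide synthesis (1.06 ± 0.26, adjusted p = 0.0264). Its call ended when replicate 2 or 3 of the day 3 resected group, or replicate 1 or 3 of the day 14 resected group, was left out.

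Genes of mitosis, the other end of the cell cycle, were set beside the replication genes. Of 29 measured mitotic genes, 26 rose on day 3 (median 2.36), where 4.92% of all transcript clusters rose. Between the days 29 fell (median -3.86), where 4.88% of all transcript clusters fell. On day 14 against mock 0 passed by limma, 13 were lower at an unadjusted p under 0.05 (44.8%, against 4.58% of all transcript clusters), all 29 differences were below 0, and the median was -1.16, beside -0.30 for the replication genes. The day 14 arrays lay below all mock arrays for 8 of the 29 mitotic genes and for 3 of the 39 replication genes. The share over all transcript clusters was 6.99%, and that of the replication genes was near it. In mock replicates 1, 2 and 3 the mitotic genes had median deviations of 0.85, 0.33 and -1.09, so the highest mock array was replicate 1 there and replicate 2 for the replication genes. On the day 14 arrays the median deviation was -1.05, -1.07 and -0.98 for mitotic genes and -0.29, -0.34 and -0.31 for replication genes. Whether the lists differ from each other on day 14 was not tested.

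**Figure D4:**
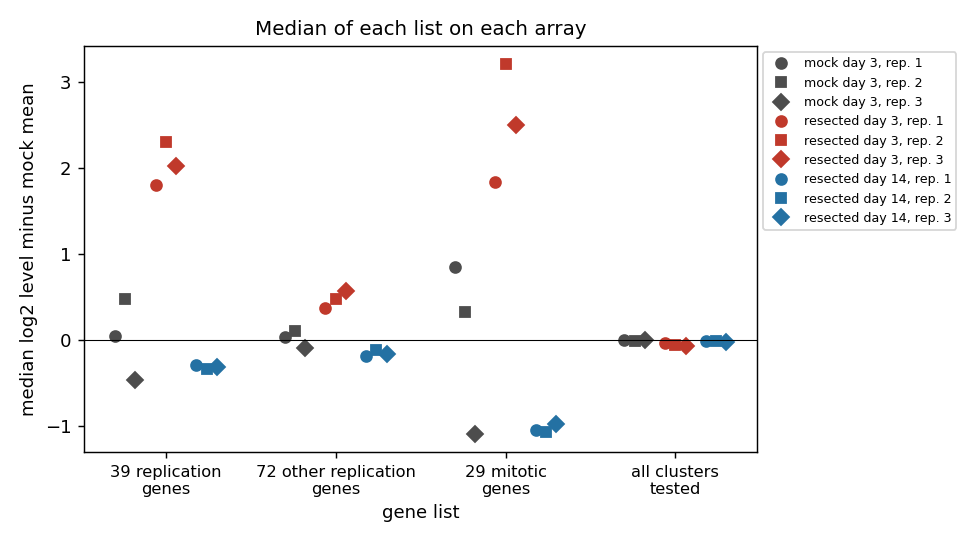
Median over each gene list of the log2 level minus the mock mean (vertical axis) on each of the 9 arrays, for the 39 replication genes, 72 other replication genes, 29 mitotic genes and all transcript clusters tested; marker shape gives the replicate number. The 39 genes lie at 1.80 to 2.31 on day 3 resected arrays and at -0.34 to -0.29 on day 14 resected arrays, with mock arrays from -0.47 to 0.48.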

How the data were processed

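Per the labels, the authors hybridised RNA of 9 samples (3 groups of 3) to Clariom S mouse arrays and made the deposited log2 values with Transcriptome Analysis Console 4.0 and RMA, which corrects background, normalises between arrays and summarises probes. Build and annotation version were not given in the sources used here, and no detection calls came with the table. Precision is limited by the number of arrays. Of 28846 rows, 6640 control rows were left out and 22206 transcript clusters tested, of which 19572 carry 1 gene symbol (through Entrez ID, RefSeq GRCm38.p6) and 2634 none.

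Members were matched by symbol, 1 transcript cluster each. Limma 3.58.1 in R 4.3.3 fitted all 9 arrays with a mean per group and empirical Bayes variances (two-sided, threshold 0.05 on the Benjamini-Hochberg adjusted p per comparison), and the script was tested on simulated data. All members were tested, and those shown by array are the 2 largest and 2 smallest day 3 differences of each role group and any not called. Of the other replication and mitotic lists, up to 3 rises and 3 falls per comparison were named, and Chaf1a, Timeless, Tipin, Wdhd1, Dck, Samhd1 and Mcm8 were named after their values were seen. Members and lists were chosen with earlier results of these data known. Alternatives were other normalisations, variance models and weights, a filter on dim probes, a replicate block and leaving out each array. The labels do not say that a replicate number pairs animals. Arrays with the same number had correlations of -0.09 to 0.05 once group means were removed. These values do not show whether equal numbers were processed together. Protein sequences and scanner files were not used here, so neither background correction nor scan batches could be varied.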

Additional observations from a re-analysis of the deposited data

Results flagged for a closer look

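The difference from mock changed between day 3 and day 14 after resection, tested directly as day 14 against day 3 resected glands by limma, for 34 of the 39 replication genes, for 26 other replication genes that were lower on day 14 and for 29 mitotic genes. Of all transcript clusters, 4.88% were lower on day 14 and 1.4% higher. The mock arrays were sampled on day 3 and cancel in this test.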

How the results depend on the processing

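Of 168 alternative values of the counts and medians, 155 stayed within the limits set (a count within 1.5 times, a median within 1 SD of the replicates). The count of members that rose on day 3 was 30 to 34 when 1 array was left out, that of members that fell between the days 32 to 36, and that of members past the threshold on day 14 against mock 0 to 1, with 2 at an unadjusted p under 0.05 and at least 2-fold. Other replication genes past the threshold on day 14 against mock numbered 1 with median centring, 1 with robust variances, 0 to 1 without 1 array and 3 at the unadjusted threshold. Over all transcript clusters the day 3 count of 1393 was 850 to 1295 without 1 array (lowest without day 3 resected replicate 3), that between the days 874 to 1386 (lowest likewise), and the day 14 count of 34 was 20 to 58 without 1 array (20 and 22 without day 14 resected replicate 2 or 3, 58 without mock replicate 3), 56 with an intensity trend and 266 at the unadjusted threshold. The cause was not tested. With the replicate block the members called numbered 34 on day 3, 0 on day 14 and 34 between the days. Since the labels do not say that the numbers pair the samples, this is given once. Each member has 1 transcript cluster, so another cluster could not be tried.

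Signs on day 14 against mock were not stable for 18 genes. Leaving out 1 array gave -0.38 to 0.12 for Mcm2, -0.33 to 0.34 for Mcm3, -0.13 to 0.22 for Mcm10 (and -0.01 with median centring), -0.28 to 0.06 for Orc1, -0.57 to 0.30 for Orc6 and -0.84 to 0.01 for Cdc6. It gave -0.80 to 0.06 for Cdt1, -0.53 to 0.11 for Gmnn, -0.86 to 0.57 for Gins1, -0.31 to 0.14 for Gins3, -0.35 to 0.12 for Pola1 and -0.50 to 0.12 for Pola2. For Pold1 it was -0.11 to 0.22, for Rpa2 -0.62 to 0.10, for Fen1 -0.51 to 0.16, for Lig1 -0.19 to 0.07, for Tyms -0.63 to 0.09 and for Tk1 -0.38 to 0.03. Between the days Pold1 ran from -0.28 to 0.05. Signal near background limits the genes with low mock levels.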
